A study of Arabidopsis thaliana with 12 samples.

Results

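The plastid-encoded genes of Arabidopsis thaliana were taken as every row of the count files whose locus name begins with ATCG, which gave 133 of 36917 loci. The remaining loci were 36632 nuclear and 152 mitochondrial ones. The study sequenced RNA from 12 libraries in 6 groups of 2: flu/ex1/ydl1 plants at 0, 30 and 60 min of light and flu/ex1 plants at 0, 30 and 60 min of light. All plants were 6 d old, had been grown in soil under constant light and had then been placed in darkness, 4 h by the labels. The flu and ex1 mutations are carried by both genotypes, and flu/ex1/ydl1 carries ydl1 in addition. The title of the series asks whether YDL1 restrains the expression changes that singlet oxygen induces.

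The plastid genome encodes core parts of the photosystems, the large subunit of the carbon-fixing enzyme, parts of the plastid ribosome and of one of the plastid RNA polymerases, and ribosomal and transfer RNAs. Its genes are transcribed by a bacterial-type polymerase, which uses sigma factors made in the nucleus, and by a phage-type polymerase made in the nucleus. The flu mutant accumulates a chlorophyll precursor in darkness, which on return to light gives rise to singlet oxygen inside the plastid, and EX1 is a plastid protein needed for much of the nuclear response to it.

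Light times here are those of the code in the deposited files' names, because for 8 of the 12 libraries the label gives another time and for 4 the times agree. Libraries are called by genotype, this time and the number in the name. Which of the times is right was not tested, and no plastid locus passed in any comparison when the labelled times were used. Levels of the nuclear gene SIGE, given below, separated 0 min from light by the file-name times but not by the labels. The labels do not say whether libraries of a group came from separate plants, and p-values measure the spread among these libraries alone, which may be technical. Total counts ran from 7859611 to 11591060 per library. FLU and EX1, mutated in all groups, had counts in every library: FLU had 165 to 511 in flu/ex1/ydl1 and 385 to 753 in flu/ex1, and EX1 had 16 to 42 in flu/ex1/ydl1 and 21 to 77 in flu/ex1, which does not check the genotype labels. The reference gives no locus the name YDL1.

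Plastid loci held most of the counts. The number of plastid counts per nuclear count was 2.29 and 1.75 at 0 min, 2.56 and 1.79 at 30 min and 2.21 and 1.92 at 60 min in flu/ex1/ydl1. In flu/ex1 it was 2.12 and 2.24 at 0 min, 1.90 and 2.12 at 30 min and 1.74 and 1.74 at 60 min. The genotypes overlapped, and both flu/ex1 libraries at 60 min lay below the other 10.

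The ratio averaged 2.09 ± 0.318 in flu/ex1/ydl1 and 1.98 ± 0.214 in flu/ex1 (SD, n = 6 each). The difference of 0.07 in mean log2 ratio was within the spread between libraries (exact two-sided permutation test, p = 0.513). Over both genotypes the ratio averaged 1.90 ± 0.222 at 60 min and 2.1 ± 0.242 at 0 min (SD, n = 4 each), a log2 difference of -0.14 (exact two-sided permutation test, p = 0.257, where 0.0286 is the smallest p that 4 against 4 allows). Both differences changed sign among the libraries whose file names lack the prefix that each group carries on 1 library, where they were -0.057 for genotype and 0.028 for 60 against 0 min. These ratios use the nuclear total without TMM factors, which averaged 0.923 in flu/ex1/ydl1 and 1.10 in flu/ex1. With the TMM-scaled nuclear total the ratio averaged 2.30 ± 0.440 in flu/ex1/ydl1 and 1.82 ± 0.304 in flu/ex1 (SD, n = 6 each). The genotypes overlapped there too, from 1.69 to 2.94 in flu/ex1/ydl1 and from 1.40 to 2.22 in flu/ex1. Mitochondrial counts, the other organelle's, were 0.871% to 1.10% of nuclear counts in flu/ex1/ydl1 and 0.830% to 1.23% in flu/ex1. In bulk plants, fewer plastids and less RNA per plastid cannot be told apart.

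**Figure D1:**
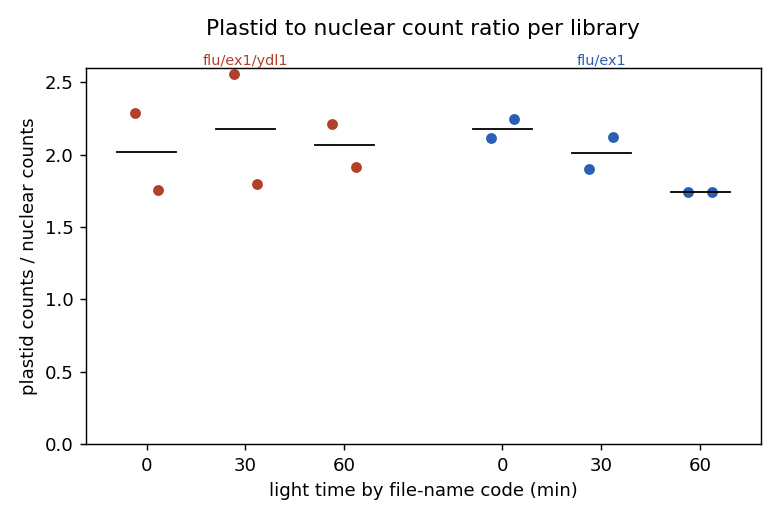
Plastid counts divided by nuclear counts (vertical axis, from 0) in each library (points) by light time in minutes (horizontal axis), flu/ex1/ydl1 on the left and flu/ex1 on the right; bars are the means of 2 libraries. The genotypes overlap, and both flu/ex1 libraries at 60 min stand at 1.74.

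A few loci dominated. ATCG00020 held 54.1% and ATCG00490 17.6% of all plastid counts, 71.7% together, and the 20 most abundant loci held 89.8%. ATCG00020 took 49.1% to 56.6% of plastid counts in flu/ex1/ydl1 and 51.2% to 56.7% in flu/ex1, and ATCG00490 took 15.6% to 19.5% in flu/ex1/ydl1 and 14.8% to 19.3% in flu/ex1. These shares compare counts, not levels per length. On the plastid scale neither locus differed between genotypes over all libraries beyond the spread, with log2 fold changes of 0.01 ± 0.09 (SE) for ATCG00020 and 0.00 ± 0.11 for ATCG00490.

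At the other end, 40 loci had fewer than 1000 counts over all 12 libraries and 93 had 1000 or more. Of the 40, 36 lay in 2 runs of 18 consecutive loci each. ATCG00830 to ATCG00990 held 706 counts in all, and ATCG01140 to ATCG01310 held 611. Between the runs the counts were high again. Outside them ATCG00010, ATCG00060, ATCG00250 and ATCG01030 were under 1000. Of the 133 loci, 3 had no count, which for the sum of plastid counts allows a share of up to 3.9e-06%.

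The reference names 6 of the 133 loci, so the others are given by locus number. ATCG01310, ribosomal protein L2, had 161 counts and lies in the second low run. In the plastid record of RefSeq, 31 of the 129 gene entries have a sequence that occurs more than once in that genome, with both members of a pair counted, and the entries for ribosomal protein L2 are among them. How reads that match several places were counted is not given in the sources used here, and its part in the low runs was not tested. The other named loci lay well above. ATCG00530, a CemA-like protein, had 249776 counts and ATCG00670, a subunit of the Clp protease, 236646. ATCG00430, which the reference's note calls photosystem II reaction center protein G, had 69483. The plastid record of RefSeq lists no psbG, so this name may not hold. ATCG00660, ribosomal protein L20, had 37568 and ATCG00750, ribosomal protein S11, 21309.

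**Figure D2:**
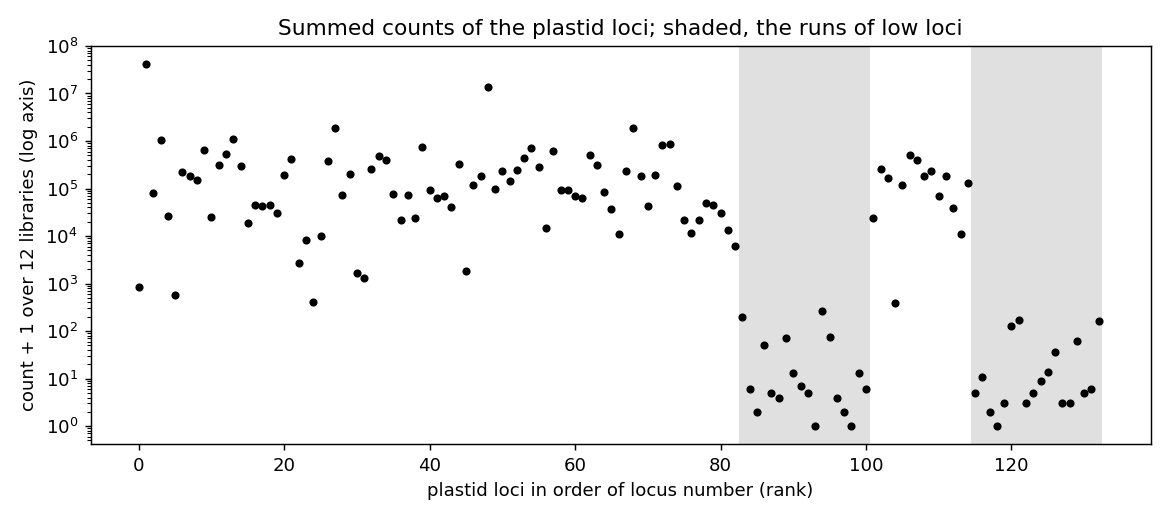
Summed count plus 1 over 12 libraries (vertical log axis) for each of the 133 plastid loci in order of locus number (horizontal axis). Grey bands mark the 2 runs of 18 loci, which hold 706 and 611 counts.

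Of the 133 loci, 103 had enough counts to be tested, 10 of them under 1000 counts in total. Fold changes were set on 2 scales. On the nuclear scale counts are divided by the nuclear total times its TMM factor, so the whole plastid fraction can move. On the plastid scale they are divided by the plastid total, so for plastid loci only the make-up of the plastid RNA shows. Nuclear loci were divided by that total too, so shares over all loci on this scale also carry the plastid to nuclear ratio. The median of the nuclear loci in the comparison of genotypes was -0.01 on the nuclear scale and -0.32 on the plastid scale, in log2 units.

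On the nuclear scale no plastid locus differed between flu/ex1/ydl1 and flu/ex1 over all libraries in edgeR's quasi-likelihood test (Benjamini-Hochberg adjusted p, threshold 0.05, over 17879 loci), against 8.85% of all loci. At unadjusted p under 0.05 there were 17 of 103 plastid loci, against 4064 of 17724 nuclear loci. DESeq2 called 4 plastid loci, the fit with no filter on low counts 15, and the fit with the file-name prefix as a block 1. No share over all loci was computed for these alternatives, here or at 60 min. The median log2 fold change was 0.19 over plastid loci and -0.01 over nuclear loci, with 72 plastid loci above 0 and 31 below. At 60 min again 0 plastid loci passed, against 9.86% of all loci. At unadjusted p under 0.05 there were 25 of 103 plastid loci, against 3736 of 17724 nuclear loci. DESeq2 called 6 plastid loci, the fit with no filter 18 and the fit with the prefix as a block 1. There the median was 0.37 over plastid loci and -0.04 over nuclear loci, and 87 of 103 lay above 0.

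The 2 flu/ex1/ydl1 libraries at 60 min differed widely, and these counts moved with them. Without replicate 2 of them more plastid loci passed between genotypes, over all libraries and at 60 min, on both scales. That fit leaves 1 library in the group, and no share over all loci was computed for it. The TMM factors of the 2 libraries were 0.752 in replicate 1 and 1.13 in replicate 2, and their total counts 7954268 and 11013392. The part of these in the result was not tested. The 2 flu/ex1 libraries at 0 min, the base of each light comparison in flu/ex1, also differed widely. A chi-square over plastid loci between the 2 libraries of a group, per degree of freedom, was 1287 there. It was 1798 in flu/ex1/ydl1 at 60 min and 365 to 677 in the other groups.

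Between genotypes over all libraries, 1 locus was called on the plastid scale, ATCG00040, which was lower in flu/ex1/ydl1. It had 11735, 11914, 10528, 10852, 8809 and 13788 plastid CPM, counts per 1000000 plastid counts, in the flu/ex1/ydl1 libraries, in time order. In flu/ex1 it had 14337, 15384, 15541, 15030, 18726 and 17486. All 6 flu/ex1/ydl1 libraries lay below all 6 flu/ex1 libraries.

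The means for ATCG00040 were 11271 ± 1658 in flu/ex1/ydl1 and 16084 ± 1667 in flu/ex1 (SD, n = 6 each). In log2 terms the fold change was -0.51 ± 0.14 (SE, edgeR adjusted p = 0.0408). Called loci were 4.79% of all loci in this comparison, and 2.16% were called lower. The call was lost with DESeq2 size factors (-0.37), with TMM on plastid loci (-0.39) and in 10 of the 12 fits that left out 1 library (edgeR adjusted p from 0.00267 to 0.134 over the 12), and the direction was the same in all of these. On the nuclear scale, where the groups overlap, the log2 fold change was -0.19 ± 0.18 (edgeR adjusted p = 0.577). At 60 min alone 0 plastid loci passed in edgeR's test on the plastid scale, against 5.49% of all loci. There 5 of 103 were at unadjusted p under 0.05, against 4899 of 17724 nuclear loci. DESeq2 called 1 plastid locus, and no share over all loci was computed for it.

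**Figure D3:**
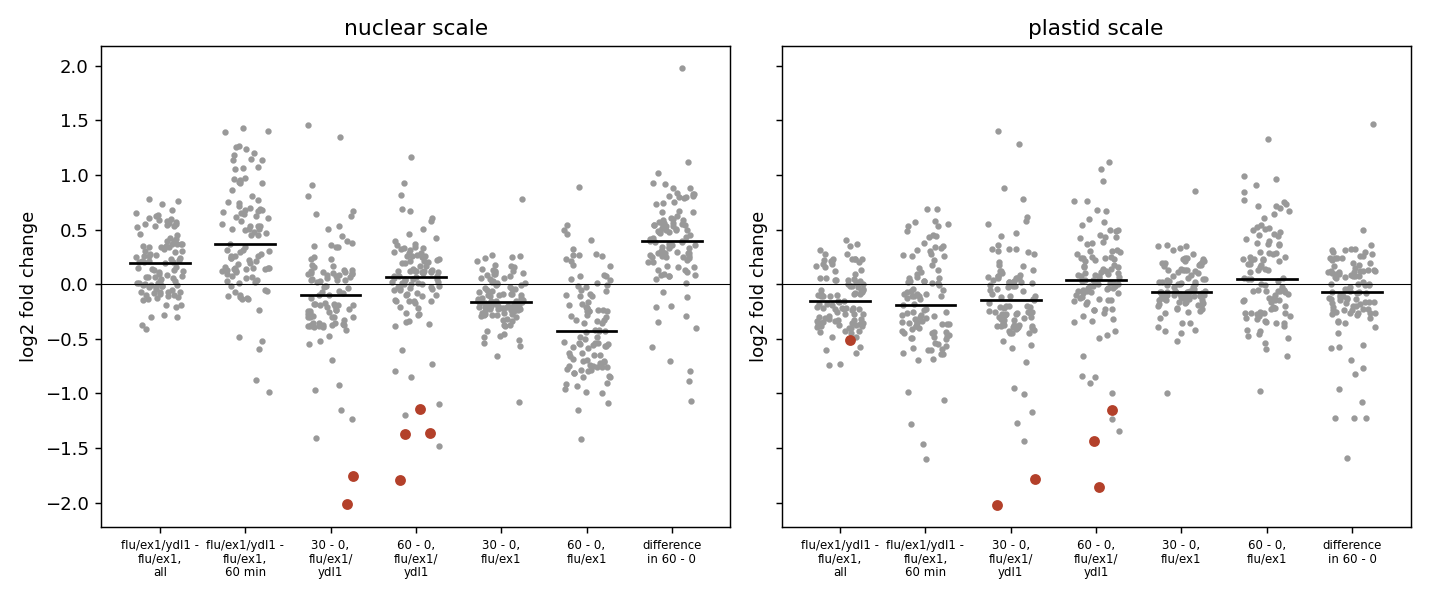
Log2 fold changes (vertical axis) of the 103 tested plastid loci in 7 comparisons (horizontal axis) on the nuclear scale (left) and the plastid scale (right); horizontal positions within a column are random. Bars are medians and red points passed an adjusted p of 0.05; all red points lie below 0.

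A few loci were called lower in light in flu/ex1/ydl1, with 394 to 8228 counts each over all libraries. At 30 against 0 min, 2 of the 103 tested plastid loci passed on each scale and both were lower, ATCG00320 and ATCG00060. Called loci were 5.47% of all loci on the nuclear scale and 2.85% on the plastid scale, and loci called lower 0.598% and 0.157% on these scales. At 60 against 0 min, 4 of the 103 plastid loci passed on the nuclear scale and 3 on the plastid scale, and all were lower. Here called loci were 12.7% of all loci on the nuclear scale and 8.27% on the plastid scale, of which lower ones made up 2.87% and 0.912% of all loci.

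ATCG00320 was the locus called in both light comparisons on both scales. It had 33.9 and 23.1 plastid CPM at 0 min, 7.36 and 6.68 at 30 min and 11.5 and 4.44 at 60 min in flu/ex1/ydl1. The flu/ex1 libraries had 23.1 and 22.8 at 0 min, 17.0 and 16.8 at 30 min and 17.0 and 21.3 at 60 min. All 4 flu/ex1/ydl1 libraries in light lay below every other library.

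These levels rest on 32 to 210 counts per library in flu/ex1/ydl1 and 103 to 156 in flu/ex1. In flu/ex1/ydl1 the log2 fold change was -2.02 ± 0.42 at 30 against 0 min (SE, edgeR adjusted p = 0.00753) and -1.85 ± 0.42 at 60 against 0 min (SE, edgeR adjusted p = 0.00553). In flu/ex1 it was -0.44 ± 0.40 and -0.26 ± 0.39, and the difference between genotypes in 60 against 0 min was -1.59 ± 0.57 (SE, edgeR adjusted p = 0.322).

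ATCG00060 was called at 30 min only. It had 11.9 and 10.9 plastid CPM at 0 min, 2.76 and 3.82 at 30 min and 7.32 and 5.41 at 60 min in flu/ex1/ydl1. Its values in flu/ex1 were 9.40 and 6.65 at 0 min, 7.59 and 8.46 at 30 min and 8.22 and 7.49 at 60 min. Both flu/ex1/ydl1 libraries at 30 min lay below the other 10.

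Its log2 fold change in flu/ex1/ydl1 was -1.79 ± 0.40 at 30 against 0 min (SE, edgeR adjusted p = 0.0135), resting on 18 and 28 counts at 30 min and 74 and 55 at 0 min. With the labelled times it was 0.14, the other direction. At 60 against 0 min it was -0.85 ± 0.38 (SE, edgeR adjusted p = 0.236).

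ATCG00240 and ATCG00230, neighbours by number, were lower at 60 min. ATCG00240 had 182 and 156 plastid CPM at 0 min, 84.1 and 84.7 at 30 min and 70.7 and 54.5 at 60 min in flu/ex1/ydl1. In flu/ex1 it had 173 and 98.3 at 0 min, 83.1 and 129 at 30 min and 84.4 and 111 at 60 min. Both flu/ex1/ydl1 libraries at 60 min lay below the other 10 libraries.

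The log2 fold change of ATCG00240 at 60 against 0 min was -1.43 ± 0.36 in flu/ex1/ydl1 (SE, edgeR adjusted p = 0.0124) and -0.48 ± 0.35 in flu/ex1 (SE, edgeR adjusted p = 0.4997). ATCG00230 had 50.5 and 45.1 at 0 min, 30.5 and 33.4 at 30 min and 21.2 and 21.9 at 60 min in flu/ex1/ydl1. The flu/ex1 libraries had 46.1 and 38.8 at 0 min, 31.0 and 47.0 at 30 min and 30.3 and 34.9 at 60 min. As for ATCG00240, both flu/ex1/ydl1 libraries at 60 min were the lowest of the 12.

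For ATCG00230 the log2 fold change at 60 against 0 min was -1.15 ± 0.34 in flu/ex1/ydl1 (SE, edgeR adjusted p = 0.0391) and -0.38 ± 0.33 in flu/ex1 (SE, edgeR adjusted p = 0.569). ATCG01030 passed at 60 against 0 min on the nuclear scale alone, with -1.37 ± 0.42 (SE, edgeR adjusted p = 0.0414) from 16 and 19 counts at 60 min and 46 and 35 at 0 min. On the plastid scale it was -1.35 ± 0.45 (SE, edgeR adjusted p = 0.0765). Over the 12 fits that left out 1 library each, the call of ATCG00230 on the plastid scale was lost in 11 (edgeR adjusted p from 0.04996 to 0.236), and that of ATCG01030 on the nuclear scale in 5 (from 0.00410 to 0.449). None of these calls in flu/ex1/ydl1 held without its 0 min replicate 1, and both calls at 30 min were also lost without either 30 min library. At 60 against 0 min, fewer loci were called without 60 min replicate 2 and more without 60 min replicate 1, on both scales. Each such fit leaves 1 library in the group, and no share over all loci was computed for it.

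**Figure D4:**
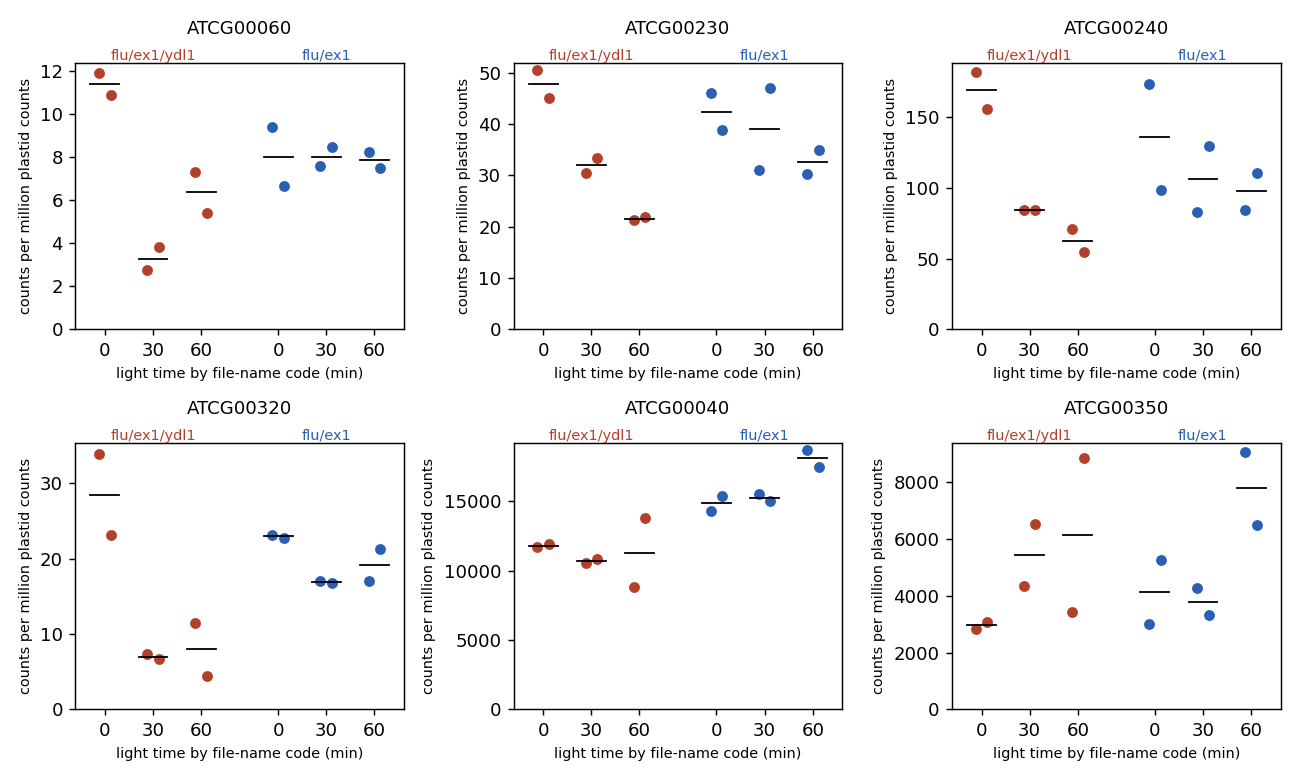
Plastid CPM, counts per 1000000 plastid counts (vertical axes, from 0), by light time in minutes (horizontal axes) in each library, flu/ex1/ydl1 left of flu/ex1; bars are means of 2 libraries. In flu/ex1/ydl1 ATCG00320 passed as lower at 30 and 60 min, ATCG00060 at 30 min and ATCG00230 and ATCG00240 at 60 min, ATCG00040 is lower in flu/ex1/ydl1 than in flu/ex1, and ATCG00350 passed no test with all 12 libraries.

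In flu/ex1 no plastid locus passed at 30 against 0 min on either scale in edgeR's test, against 0.615% of all loci on the nuclear scale and 0.285% on the plastid scale, with 0 at unadjusted p under 0.05 on both scales and 0 by DESeq2. At 60 against 0 min again 0 passed, against 1.39% on the nuclear scale and 1.63% on the plastid scale, and DESeq2 called 0. At unadjusted p under 0.05 there were 5 and 4 of 103 on these scales, against 2567 and 2940 of 17724 nuclear loci. With no filter on low counts 4 passed on the nuclear scale and 2 on the plastid scale, and with the file-name replicate block 6 passed on the plastid scale. For these alternatives no share over all loci was computed, so whether the counts exceed it is not known. The median plastid locus was -0.43 on the nuclear scale in log2 units, with 83 of 103 below 0, and 0.05 on the plastid scale. In flu/ex1/ydl1 the same medians were 0.06 and 0.04. Both flu/ex1 libraries at 60 min had the highest totals of all, 11533190 and 11591060 counts, and the part of depth in this was not tested.

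The difference between genotypes in 60 against 0 min called 0 plastid loci on either scale in edgeR's test, against 3.31% of all loci on the nuclear scale and 0.179% on the plastid scale. At unadjusted p under 0.05 there were 0 on the nuclear scale and 1 on the plastid scale, against 2172 and 1649 of 17724 nuclear loci. DESeq2 called 0 plastid loci. The falls in flu/ex1/ydl1 were not shown to differ from the values in flu/ex1. The median standard error of this difference over the 93 loci with 1000 counts or more was 0.456 on the nuclear scale and 0.432 on the plastid scale, which sets the precision of each.

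ATCG00350 and ATCG00340 had the largest positive fold changes at 60 against 0 min in flu/ex1/ydl1 among loci with 1000 counts or more, though neither passed, and they were chosen after their values were seen. ATCG00350 had 2842 and 3072 plastid CPM at 0 min, 4355 and 6516 at 30 min and 3433 and 8867 at 60 min in flu/ex1/ydl1. Its values in flu/ex1 were 3025 and 5271 at 0 min, 4268 and 3328 at 30 min and 9074 and 6492 at 60 min. The 2 flu/ex1/ydl1 libraries at 60 min lay far apart, and in flu/ex1 both at 60 min lay above those at 0 min.

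ATCG00350 at 60 against 0 min on the plastid scale had a log2 fold change of 1.06 ± 0.37 in flu/ex1/ydl1 (SE, edgeR adjusted p = 0.0958) and 0.91 ± 0.37 in flu/ex1 (SE, edgeR adjusted p = 0.227). In flu/ex1/ydl1 it was 1.58 without 60 min replicate 1 (edgeR adjusted p = 0.00184) and 0.22 without 60 min replicate 2 (edgeR adjusted p = 0.735). ATCG00340 had 0.95 ± 0.34 in flu/ex1/ydl1 and 0.77 ± 0.34 in flu/ex1. A run of 9 loci from ATCG00740 to ATCG00820, also bounded after its values were seen and holding ribosomal protein S11, ran from 0.27 to 0.50 in flu/ex1/ydl1 and from 0.16 to 0.75 in flu/ex1 on the plastid scale, and none passed. On the nuclear scale the same run spanned 0.22 to 0.37 in flu/ex1/ydl1 and -0.32 to 0.28 in flu/ex1, where its direction was mixed. The 7 tested loci from ATCG00200 to ATCG00260, which hold ATCG00230 and ATCG00240 and were bounded in the same way, ran from -1.43 to -0.08 in flu/ex1/ydl1 and from -0.66 to -0.35 in flu/ex1 on the plastid scale. On the nuclear scale they ran from -1.37 to 0.04 in flu/ex1/ydl1 and from -1.15 to -0.84 in flu/ex1.

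**Figure D5:**
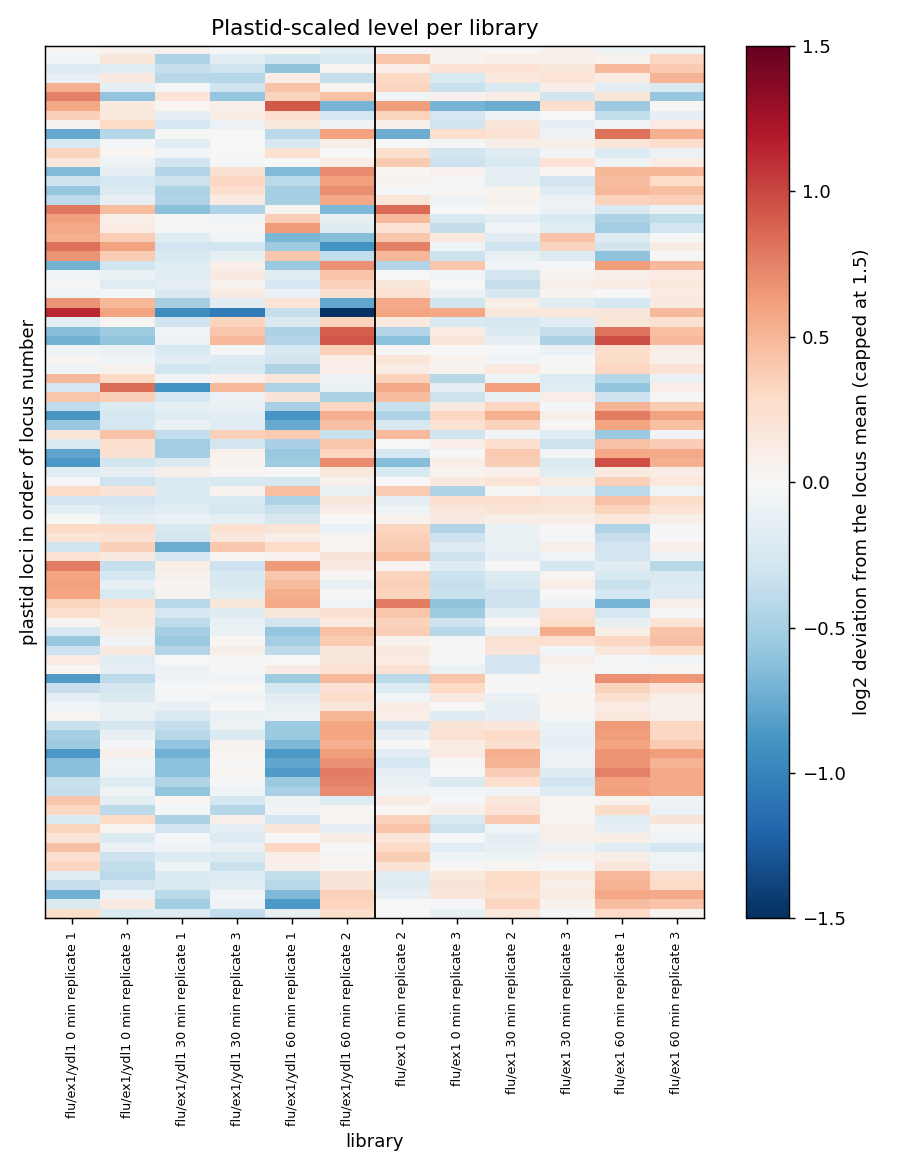
Log2 deviation of each locus from its own mean over 12 libraries (colour, capped at 1.5) for the 93 loci with 1000 counts or more in order of locus number (vertical axis), flu/ex1/ydl1 libraries left of the line and flu/ex1 right of it. Replicates 1 and 2 of flu/ex1/ydl1 at 60 min differ for many loci, as do their totals of 7954268 and 11013392 counts.

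The other named loci passed no test. On the plastid scale ATCG00430 had a log2 fold change at 60 against 0 min of 0.54 ± 0.39 in flu/ex1/ydl1 and 0.71 ± 0.39 in flu/ex1. For ATCG00670, the Clp protease subunit, it was -0.02 ± 0.28 in flu/ex1/ydl1 and 0.14 ± 0.28 in flu/ex1, and for ATCG00530 0.07 ± 0.25 and 0.21 ± 0.25. The ribosomal proteins L20 and S11 had 0.08 ± 0.37 and 0.43 ± 0.35 in flu/ex1/ydl1, and 0.25 ± 0.37 and 0.50 ± 0.35 in flu/ex1.

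Nuclear genes of plastid transcription were looked at beside these loci, as a list of 20 genes for sigma factors, polymerases and their associated proteins. SIGE, also called SIG5, a sigma factor known to respond to light and stress, rose in light in both genotypes. On the nuclear scale it stood at 7.32 ± 5.77 at 0 min, 51.8 ± 1.98 at 30 min and 67.6 ± 9.56 at 60 min in flu/ex1/ydl1, and at 10.7 ± 0.970, 62.5 ± 3.54 and 64.1 ± 14.0 at these times in flu/ex1 (nuclear CPM, counts per 1000000 TMM-scaled nuclear counts, SD, n = 2 each). At 60 against 0 min it was up by 3.18 ± 0.38 in flu/ex1/ydl1 (log2, SE, edgeR adjusted p = 1.83e-05) and by 2.57 ± 0.35 in flu/ex1 (edgeR adjusted p = 0.00160). By file-name time the SIGE level ran from 3.24 to 11.4 nuclear CPM at 0 min and from 50.4 to 74.3 in light. By the labels, 3.24 and 50.4 shared 0 min in flu/ex1/ydl1, and 11.4 and 54.3 shared 30 min in flu/ex1. Levels at 30 and 60 min overlapped by file-name time.

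PTAC7 fell at 60 against 0 min in flu/ex1/ydl1, with -0.91 ± 0.29 (SE, edgeR adjusted p = 0.0480). PTAC2 and PTAC6 were lower in flu/ex1/ydl1 than in flu/ex1 at 60 min, with -0.98 ± 0.29 (edgeR adjusted p = 0.0386) and -0.83 ± 0.25 (edgeR adjusted p = 0.0436). These 3 encode proteins of the plastid transcription machinery. DESeq2, run after the data were seen, called neither PTAC2 (adjusted p = 0.0727) nor PTAC6 (adjusted p = 0.0555). At 60 min 2 of the 20 genes were called between genotypes, or 10%, which is near the 9.86% of all loci. Over all libraries 0 of 20 were called by edgeR and 0 by DESeq2. At unadjusted p under 0.05 there were 7 of 20, against 4064 of 17724 nuclear loci. The median of flu/ex1/ydl1 against flu/ex1 over the list was -0.29 over all libraries and -0.49 at 60 min, with 17 and 16 of the 20 below 0. Over the 17724 nuclear loci tested these medians were -0.01 and -0.04, with 9152 and 9415 loci below 0.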

How the data were processed

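Per the labels' protocols, total RNA of plants went into Illumina TruSeq libraries. The submitters' processing notes name Trimmomatic, FastQC, TopHat2 2.1.1, featureCounts and the TAIR10 build; settings for strand and for reads with several matches are not given in the sources used here. The deposited values are counts per locus, not normalized by the authors. Members and lists were chosen with earlier results of these data known.

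From these counts, loci were kept with filterByExpr (minimum count 10, minimum total 15), leaving 17879. The 6 groups of genotype and file-name time were fitted together in edgeR 4.0.16 (R 4.3.3) for 7 comparisons on 2 scales, with Benjamini-Hochberg adjustment over all loci and a threshold of 0.05; each standard error is the fold change over the root of its F statistic. Ratios were compared by exact permutation tests (scipy). DESeq2 1.42.0, other scalings, no filter, blocks, only the groups compared, labelled times and leaving out each library were alternatives. The fit was also run on simulated data with known changes, and the share of them recovered is not reported here. Plastid shares have 95% Wilson intervals of at most ± 0.0334 percentage points, which, like the floor of 3 counts, cover counting error only.

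The rule named every plastid locus called. Its parts by gene symbol (a fixed set of symbols, and likeness to 1 of them) could not be applied, since neither files nor reference pair most plastid loci with symbols; 127 of 133 are unnamed. Replicate numbers did not pair the libraries: over the 500 most variable nuclear loci, 7 of 19 same-number pairs had a correlation over 0.1 (-0.24 to 0.38), against 24 of 30 pairs that share the file-name prefix. All 30 of the latter were positive, from 0.02 to 0.38. The correlations are of deviations from group means. With 2 libraries a group these mirror each other, so each value occurs in 2 of the 30 pairs. The main fit had no term for the prefix, which was a block in an alternative only. No sequences are printed, as the genome at hand is of another build.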

Additional observations from a re-analysis of the deposited data

Results flagged for a closer look

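In flu/ex1/ydl1 60 min replicate 2, ATCG00020 took 49.1% of plastid counts, against 54.0% to 56.6% in the other 5 flu/ex1/ydl1 libraries, and its distance from the nearest of them made it stand apart. In flu/ex1 0 min replicate 2, nuclear ribosomal RNA loci took 0.828% of the total count, against 0.00406% to 0.0439% in the other 5 flu/ex1 libraries. Chance flags about 1 in 20 groups at this threshold.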

How the results depend on the processing

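With labelled light times 0 plastid loci were called in all comparisons, and the log2 fold change of ATCG00060 at 30 against 0 min in flu/ex1/ydl1 reversed to 0.14 on the plastid scale. The labelled 0 and 30 min groups each joined a library low in SIGE with a high one. In the order nuclear then plastid scale, DESeq2 called 4 and 2 loci for genotype, 6 and 1 for genotype at 60 min, and 4 on the nuclear scale at 30 against 0 min in flu/ex1/ydl1. With no filter on low counts there were 15 and 3 for genotype, 18 on the nuclear scale at 60 min, 7 and 4 at 30 against 0 min in flu/ex1/ydl1, 7 on the nuclear scale at 60 against 0 min in flu/ex1/ydl1, and 4 and 2 at 60 against 0 min in flu/ex1. DESeq2 size factors and TMM on plastid loci each gave 0 for genotype on the plastid scale. Fitting only the groups compared gave 7 at 30 and 2 at 60 against 0 min in flu/ex1/ydl1 on the nuclear scale. With the prefix as a block, genotype and genotype at 60 min had 1 locus each on the nuclear scale. No share over all loci was computed for any of these, so whether the counts exceed it is not known, and the cause was not tested.

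With the file-name replicate block, which rests on numbers that did not pair the libraries, 1 locus was called on the nuclear scale at 60 against 0 min in flu/ex1/ydl1 and 6 on the plastid scale at 60 against 0 min in flu/ex1. Here too no share over all loci was computed.

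Leaving out each library in turn, counts on the nuclear scale ran from 0 to 17 for genotype, 0 to 21 for genotype at 60 min, 0 to 5 at 30 and 0 to 12 at 60 against 0 min in flu/ex1/ydl1, and 0 to 1 for the difference between genotypes. On the plastid scale they ran from 0 to 28 for genotype, 0 to 28 at 60 min, 0 to 4 at 30 and 0 to 18 at 60 against 0 min in flu/ex1/ydl1, and 0 to 1 for the difference. The highest counts came without flu/ex1/ydl1 60 min replicate 2 for the genotypes and without its replicate 1 for 60 against 0 min. A lone library was assumed to vary like the other groups. No share over all loci was computed for these fits, so whether the counts exceed it is not known. Log2 differences in the plastid to nuclear ratio ran from 0.01 to 0.12 for genotype and from -0.23 to -0.10 for 60 against 0 min. Among libraries whose file names lack the prefix they reversed, to -0.057 for genotype and 0.028 for 60 against 0 min. The alternative that drops ribosomal RNA loci was not run, because no plastid locus could be identified as one. With 2 libraries a group, small changes may have gone undetected.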
